A study of Mus musculus with 8 samples.

Results

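Cluster C6 holds the luminal progenitors of the nulliparous (NP) mammary gland. Its members were chosen by a rule: cells of the 2 NP libraries that the authors assigned to C6 in their deposited annotation and that passed the quality control recorded there. There were 688 such cells, 372 in mouse 1 and 316 in mouse 2, of 4223 NP cells and of 25009 cells in the whole series that passed. C6 therefore made up 17.2% of the cells of mouse 1 (95% interval 15.6% to 18.8%, exact Clopper-Pearson) and 15.4% of those of mouse 2 (13.8% to 17.0%). Counts of cells and of molecules carry counting error only in these intervals.

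The study followed the mouse mammary epithelium by droplet single-cell RNA sequencing at 4 stages, nulliparous, day 14.5 of gestation, day 6 of lactation and post-involution, taken 11 days after weaning, with 2 mice at each stage and 1 library for each mouse. NP mice were C57BL/6N females 8 weeks old that had not been pregnant, and both were in estrus by vaginal smear. EpCAM-positive cells negative for CD31, CD45 and Ter119 were sorted, so endothelial, white and red blood cells were meant to be removed before capture. The comparison populations came from the same libraries: C4, differentiated hormone-sensing cells (2183 cells), C12, basal cells (786 cells), and C2, hormone-sensing progenitors (434 cells).

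The mammary duct is a tube of 2 epithelial layers. An outer basal layer contracts to expel milk, and an inner luminal layer contains cells that sense estrogen, progesterone and prolactin beside cells that lack these receptors. Luminal progenitors belong to the receptor-low side: they divide in culture, are regarded as the source of the milk-secreting alveolar lineage, and are usually isolated by the receptor tyrosine kinase Kit, the lipopolysaccharide co-receptor Cd14 and the activity of aldehyde dehydrogenases.

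Within each mouse, the UMIs (unique molecular identifiers, each marking 1 captured transcript) were added up over a cluster's cells. Levels are CPM, a gene's share of that sum scaled to counts per 1e6 UMIs, given for mouse 1 and then mouse 2. C6 held 3313640 and 2411360 UMIs, with a median of 7768 and 6597 UMIs per cell. Median depth per cell was 10163 and 10309 UMIs in C4, 6046 and 6302.5 in C12 and 16399 and 16877 in C2. Because the authors made the clusters from these same counts, differences between clusters are descriptions and carry no p-value. The mouse is the replicate (n = 2), and a gene is called higher or lower only at 20 CPM or more in the higher cluster and a fold of at least 2 in the same direction in both mice. No C6 cell shared its barcode with another library.

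All 6 marker genes of the label were present in C6. Aldh1a3, which encodes an aldehyde dehydrogenase that makes retinoic acid (chr7:66390890-66427517, minus strand, GRCm38), was at 2035 and 1759 CPM in C6, 39.4 and 15.03 CPM in C4, and 157 and 57.2 CPM in C12. Wfdc18, a small secreted protein with a whey acidic protein domain (chr11:83709015-83711348, plus strand), was at 4454 and 5640 CPM in C6, 97.7 and 49.8 CPM in C4, and 482 and 102 CPM in C12. For both genes the 2 C6 values lay far above every value of C4 and C12, and C4 and C12 were themselves lower in mouse 2 than in mouse 1.

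Csn3 encodes kappa-casein, the protein that stabilises casein micelles (chr5:87925579-87932665, plus strand). It was at 743 and 1413 CPM in C6, 13.1 and 9.93 CPM in C4, and 61.8 and 46.7 CPM in C12. Its fold over C4 was 56.5 and 142, and it was the marker on which the 2 mice differed most within C6. Kit was at 63.7 and 78.8 CPM and Cd14 at 292 and 280.3 CPM in C6, against at most 6.82 and 36.6 CPM in any library of C4 or C12. Lcn2, the iron-sequestering antibacterial lipocalin (chr2:32384633-32388252, minus strand), was at 3252 and 3485 CPM in C6 and 84.3 and 42.4 CPM in C4. Basal C12 held it at 2043 and 1810 CPM, which left a fold of 1.59 and 1.93, so that of the 6 markers only Lcn2 was not called between C6 and C12.

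**Figure D1:**
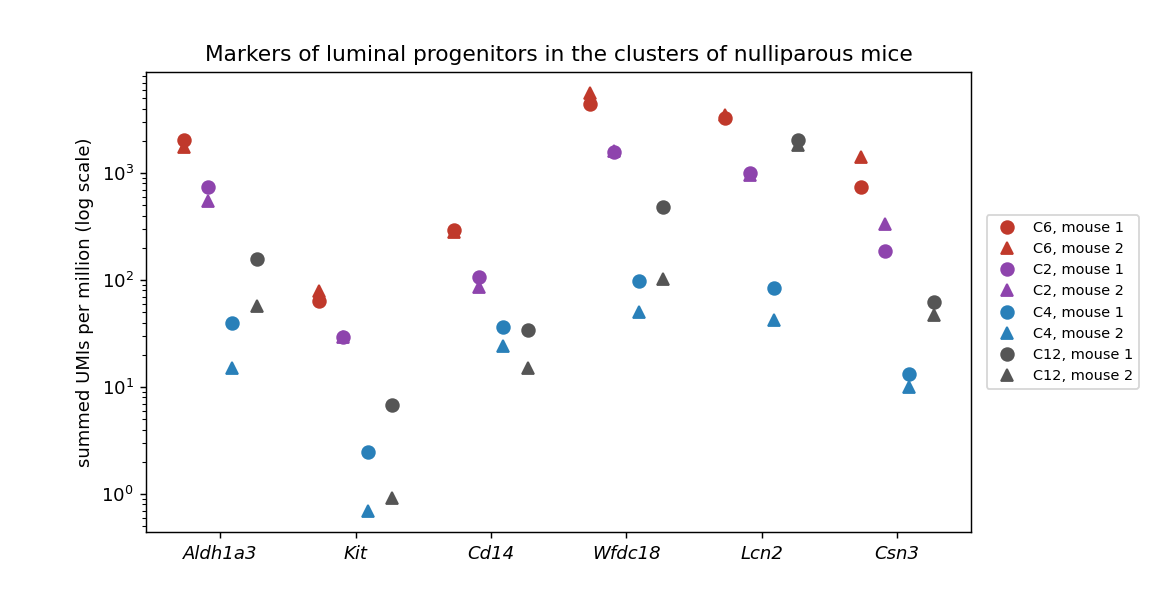
Level of the 6 markers in the summed cells of C6, C2, C4 and C12 in nulliparous mouse 1 (circles) and mouse 2 (triangles), in CPM on a log scale. C6 lies above the other 3 clusters for every marker, and Lcn2 is the one for which basal C12, at 2043 and 1810 CPM, comes closest.

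Detection in single cells was compared after each cell had been thinned to 2000 UMIs. At that depth 97.6% (95.5% to 98.9%) and 97.8% (95.5% to 99.1%) of C6 cells had a UMI of Wfdc18, against 11.7% and 8.09% of C4 cells. Aldh1a3 was seen in 82.5% and 76.3% of C6 cells and in 6.28% and 2.23% of C4 cells, a background that free RNA in the droplets can also give. Csn3 was seen in 53.0% (47.7% to 58.1%) of C6 cells of mouse 1 and 72.5% (67.2% to 77.3%) of those of mouse 2, and in 1.24% and 2.06% of C4 cells. Cd14 reached 36.8% and 37.3% of C6 cells, beside 7.003% and 5.03% of C4 cells.

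Kit was the sparsest marker. It was found in 14.5% (11.1% to 18.5%) and 11.7% (8.38% to 15.8%) of C6 cells at 2000 UMIs, and in 38.2% and 39.9% of the same cells without thinning, beside 0.103% and 0.413% of thinned and 2.68% and 0.825% of unthinned C4 cells. The share thus moved with depth, while C6 exceeded C4 with and without thinning. At least 3 of the 6 markers were seen in 342 of 372 and 303 of 316 thinned C6 cells (91.9% and 95.9%), in 0.515% and 0.495% of C4 cells and in 8.33% and 3.55% of C12 cells. No C6 cell lacked all 6.

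Beyond the markers, C6 stood apart from C4 in 756 genes that were higher and 638 that were lower, 12.8% and 10.8% of the 5894 genes at the level required. The 10 genes with the largest excess, by the smaller of the 2 folds and at 100 CPM or more in C6, were Car2, Trf, Csn3, Aldh1a3, Ntng1, 3110079O15Rik, Fcgbp, Wfdc18, Gpc6 and Kcnn4. Car2, carbonic anhydrase 2, was at 241 and 253 CPM in C6 and 2.29 and 1.59 CPM in C4, a fold of 104 and 156. Trf, the iron carrier transferrin, was at 1171 CPM in both mice in C6 and at 19.7 and 9.58 CPM in C4. Fcgbp, a mucin-like secreted protein, was at 634 and 434 CPM against 13.4 and 8.06 CPM. In each of these genes the difference between the mice within C6 was small beside the distance to C4.

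The genes of the hormone-sensing programme were the reverse. At 100 CPM or more in C4, the 10 with the largest deficit in C6 were Fgb, Ptn, Fam25c, Tspan1, Cited1, Cdo1, Sbp, Pgr, Agtr1a and Defb1. Ptn, the heparin-binding growth factor pleiotrophin, was at 145 and 141 CPM in C6 and 6684 and 5269 CPM in C4. Pgr, the progesterone receptor, was at 5.13 and 2.90 CPM against 159 and 141 CPM, and Prlr, the prolactin receptor, at 80.6 and 90.4 CPM against 2277 and 2225 CPM. Esr1, the estrogen receptor, was at 5.13 and 6.64 CPM in C6 and 80.3 and 91.0 CPM in C4.

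Of 16 genes for hormone receptors and hormone-sensing transcription factors, 12 reached the level for a call against C4, and 9 were lower in C6 than in C4 and none higher, with a median log2 fold of -3.09 over the 12 at a mean of 10 CPM or more. The same median over all 7465 genes at that level was 0.08, and 10.8% of all genes at the level for a call were lower. Of 12 effectors of hormone-sensing cells, 10 of them at the level for a call, 9 were lower, among them Areg, the EGF family ligand amphiregulin, at 154 and 168 CPM against 3216 and 3478 CPM, and the paracrine ligand Wnt4 at 19.6 and 8.71 CPM against 114 and 133 CPM.

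Prlr was also detected in some C6 cells. At 2000 UMIs it was seen in 12.4% (9.20% to 16.1%) and 13.9% (10.3% to 18.2%) of C6 cells, beside 14.5% and 14.9% of C12 cells and 95.3% and 95.7% of C4 cells. The share in C6 was no larger than in basal cells, where the level was 198 and 221 CPM, and single C6 cells held up to 30 and 13 UMIs before thinning. The part of free RNA in these cells was not tested.

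Against basal C12, C6 had 501 genes higher and 655 lower, 8.42% and 11% of 5949 genes. The genes with the largest excess over C12 were Bglap3, Car2, Tnfaip2, Aldh1a3, Cd55, Csn3, Kcnn4, Gm17056, Tnf and Fcgbp. Tnfaip2, a gene first described as induced by tumour necrosis factor, was at 560 and 842 CPM in C6 and 38.5 and 14.6 CPM in C12, and Tnf itself at 127 and 142 CPM against 11.3 and 9.15 CPM. Cd55, which protects cells from complement, was at 143 and 127 CPM against 11.3 and 9.15 CPM. It was also called against C4, where it was at 12.9 and 10.9 CPM.

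Of 16 basal and contractile genes, 15 reached the level for a call and all 15 were lower in C6 than in C12 (11% over all genes), with a median log2 fold of -6.17 over the 15 at 10 CPM or more. The 10 genes with the largest deficit were Actg2, Wnt10a, Col17a1, Igfbp2, Il17b, Igfbp3, Acta2, 1500015O10Rik, Myh11 and Mylk, of which Actg2, Acta2, Myh11 and Mylk belong to the smooth muscle contractile apparatus and Col17a1 to the hemidesmosome. Acta2, smooth muscle actin, was at 50.1 and 24.9 CPM in C6 and 5568 and 5357 CPM in C12, and Krt14, a basal keratin, at 50.4 and 29.9 CPM against 2907 and 2698 CPM. These 2 genes were at similar levels in C4, 61.2 and 28.5 CPM for Acta2 and 46.0 and 16.5 CPM for Krt14, and in both luminal clusters they were lower in mouse 2. Whether free RNA from basal cells has a part in these low luminal values was not tested.

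Lgals7, galectin-7, was the basal list member with the highest level in C6, at 305 and 291 CPM, above the 36.3 and 17.6 CPM of C4 and below the 1532 and 1453 CPM of C12. Sox10, a neural crest factor also found in mammary progenitors, was at 58.2 and 73.8 CPM in C6 and 73.6 and 87.4 CPM in C12, with no call between them, and at 1.74 and 1.31 CPM in C4. Egfr, the EGF receptor, had the same pattern, at 61.6 and 57.2 CPM in C6, 51.2 and 43.9 CPM in C12 and 1.58 and 1.45 CPM in C4. C6 thus shared some transcripts with the basal cells that the hormone-sensing luminal cells hardly had, as the plot of the 2 folds shows for Lcn2 as well.

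Luminal keratins and junction genes were mostly higher in C6 than in C12, and went both ways against C4. Of 13 such genes, 11 at the level for a call, 10 were higher in C6 than in C12, beside 8.42% over all genes. Among them were Krt8, at 6329 and 5131 CPM against 1801 and 1182 CPM, and Krt18, at 9818 and 7699 CPM against 1864 and 1160 CPM. Against C4, 1 of 11 was higher and 3 were lower, beside 12.8% and 10.8% over all genes. The higher one was Cldn1, a claudin of the tight junction, at 135.5 and 114 CPM against 4.26 and 1.72 CPM. The simple epithelial keratins Krt19 and Krt7 and the claudin Cldn10 were lower than in C4, at 2080 and 1679 CPM against 5143 and 3847 CPM for Krt19 and 584 and 461 CPM against 1351 and 1079 CPM for Krt7.

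There were 139 genes called higher in C6 than in all of C2, C4 and C12, 2.12% of the 6558 genes at the required level in at least 1 comparison. The 15 with the largest smallest fold were Csn3, C2cd4b, Bglap3, Car2, Crabp2, Ccrl2, Trf, Wnt5b, Atp6v1b1, Mfge8, Csf3, Atp2b1, Plet1, Lypd3 and Slc5a8. Plet1, a surface protein of epithelial progenitors, was at 5612 and 6473 CPM, next to 285 and 206 CPM in C4, 921 and 620 CPM in C12 and 1961 and 2019 CPM in C2. Atp2b1, a plasma membrane calcium pump, was at 1377 and 1279 CPM and Mfge8, the milk fat globule protein lactadherin, at 1763 and 1436 CPM. Several of these genes are known from the lactating gland, where transferrin, kappa-casein and lactadherin are secreted into milk.

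The milk proteins other than Csn3 were all below the 20 CPM required for a call in NP C6 cells. Lalba, the subunit that turns galactosyltransferase into lactose synthase, was at 7.85 and 19.9 CPM, Csn1s1 at 11.8 and 7.46 CPM and Csn1s2a at 5.13 and 0.829 CPM. Csn2 had 2 UMIs in mouse 1 and 1 in mouse 2, Wap had 1 and 0, and Glycam1 had none in either, where a count of 0 allows up to 0.905 and 1.24 CPM. Of 20 genes that make or secrete milk fat, 9 reached the level for a call against C4, and 6 were higher in C6 than in C4 and 2 lower, beside 12.8% and 10.8% over all genes. The higher ones included Mfge8, Plin2, a coat protein of lipid droplets (166 and 151 CPM against 23.3 and 15.2 CPM), Btn1a1, butyrophilin of the milk fat globule (23.8 and 32.3 CPM against 0.474 and 0.345 CPM), and Cidea, a lipid droplet protein (50.4 and 44.0 CPM against 9.31 and 6.69 CPM). The lower ones were Dgat2, which completes triglyceride synthesis, at 5.13 and 4.56 CPM against 69.4 and 58.8 CPM, and the desaturase Scd2, at 2.11 and 5.81 CPM against 24.7 and 25.6 CPM.

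Transcription factors of the secretory lineage were partly present. Of 19 in the table, 15 at the level for a call, 9 were higher in C6 than in C4 and 1 lower, and 7 were higher and none lower than in C12. Over all genes, 12.8% were higher and 10.8% lower than in C4, and 8.42% and 11% than in C12. Foxc1 was at 57.0 and 65.5 CPM, against at most 1.97 CPM in C4 and 9.40 CPM in C12, and Ehf, an ETS factor of epithelia, at 149 and 145 CPM against 37.5 and 33.2 CPM in C4. Cebpb was higher than in C4, at 215 and 222 CPM, but lower in value than in C12, at 505 and 425 CPM. Stat5a, which carries the prolactin signal, was the 1 member lower than in C4, at 14.8 and 27.8 CPM against 51.8 and 56.5 CPM.

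Genes of secreted antimicrobial and mucosal defence formed one of the groups with the largest folds. The list holds Lcn2 and Wfdc18, which are markers of the label, and Plet1, so its counts and medians are partly set by the label. Of 20 genes, 11 of them at the level for a call in each comparison, 9 were higher in C6 than in C4 and 8 higher than in C12, with medians of 5.23 and 3.00 on the log2 scale over the 12 and 13 genes at 10 CPM or more. Shares over all genes were 12.8% against C4 and 8.42% against C12. Ltf, the iron-binding protein lactoferrin, was at 336 and 525 CPM against at most 8.92 CPM in C4 and 38.8 CPM in C12. The membrane mucin genes Muc1, Muc4 and Muc15 were at 97.5 and 89.6, 61.9 and 96.6, and 151 and 186 CPM in C6, and none of them exceeded 18.3 CPM in C4 or C12. Complement component C3 was at 167 and 109 CPM against at most 35.7 CPM in C4 or C12.

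Not every defence gene belonged to C6. Wfdc2 was at 88.7 and 81.3 CPM in C6 and at 1928 and 1629 CPM in C4. Slpi, a secreted inhibitor of leukocyte proteases, was at 73.3 and 57.6 CPM in C6 and at 1232 and 1801 CPM in C12. The related genes Wfdc18, Wfdc2 and Slpi thus each had their highest level in a different one of the 3 clusters.

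Chemokines and cytokines were also abundant. Of 19 such genes, 9 of the 10 at the level for a call were higher than in C4 and 1 lower, and 6 of 11 were higher than in C12 and 1 lower. All genes together gave 12.8% higher and 10.8% lower against C4, and 8.42% and 11% against C12. Cxcl1, which attracts neutrophils through Cxcr2 (chr5:90891241-90893115, plus strand), was at 2651 and 2837 CPM in C6, 150 and 132 CPM in C4 and 592 and 374 CPM in C12. Its neighbour Cxcl2 (chr5:90903871-90905938, plus strand) was at 954.5 and 1006 CPM, against 32.9 and 17.1 CPM in C4 and 158 and 161 CPM in C12. Csf3, granulocyte colony-stimulating factor (chr11:98701263-98703629, plus strand), was at 852 and 952 CPM, against 22.7 and 18.2 CPM in C4 and 103 and 46.2 CPM in C12.

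Lif, a cytokine of the interleukin-6 family, was at 174 and 176 CPM in C6 and called against both C4 and C12. Csf1, which sustains macrophages, was at 208 and 210 CPM and called against C4, where it was at 9.47 and 4.55 CPM, but not against C12, where it was at 134 and 129 CPM. The exceptions were Cxcl15, lower than in C4 (8.75 and 7.88 CPM against 290 and 231 CPM), and Cxcl14, lower than in C12 (40.4 and 18.7 CPM against 3604 and 3874 CPM). Il6 had 1 and 3 UMIs in all C6 cells, and Csf2 and Ccl28 had none.

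Genes of innate sensing and of the NF-κB pathway, which drives many of these cytokines, were moderately higher. Of 16, 6 of the 11 at the level for a call were higher than in C4 (12.8% over all genes) and 3 of 12 higher than in C12 (8.42%), and none was called lower in either. Cd14, a marker of the label, is one of the 16 and was among the higher genes in both comparisons. Nfkbia, the inhibitor that NF-κB itself induces, was at 3291.5 and 3270 CPM in C6 against 1392 and 1207.5 CPM in C4. Tlr2 was at 28.4 and 29.0 CPM against 4.42 and 3.58 CPM in C4, and Tlr4, the receptor that Cd14 serves, was at 12.1 and 11.6 CPM, below the level for a call. Immediate early genes can be induced by tissue dissociation. Of 16 at the level for a call against C4, 2 were higher, Egr1 and Ier3, near the 12.8% over all genes. Only 1, Atf3, was lower, where the share over all genes was 10.8%. Against C12, 9 of 17 were higher, beside 8.42% over all genes, among them Fos at 2442 and 1841 CPM against 560 and 449 CPM. The part of dissociation in the levels of the cytokine genes was not tested.

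Of 17 genes of the retinoid pathway, 8 reached the level for a call against C4 and 4 of these were higher in C6, where the share over all genes was 12.8%. Besides Aldh1a3 they included the retinoid carriers Crabp2 (150 and 159 CPM against 6.24 and 3.24 CPM) and Fabp5 (271 and 241 CPM against 7.66 and 3.93 CPM). Dhrs3, which turns retinaldehyde back to retinol, was lower, at 7.24 and 7.46 CPM against 38.0 and 40.3 CPM. Of 17 genes of the Notch pathway, 7 reached that level and 3 were higher than in C4, the receptors Notch1 (62.2 and 59.7 CPM) and Notch2 (28.4 and 34.0 CPM) and the target Nrarp (48.0 and 35.7 CPM). The ligands Jag1 and Dll1 were at 3.92 and 2.49 CPM and at 3.02 and 0.415 CPM in C6, and at 301 and 295 CPM and at 107 and 96.1 CPM in basal C12.

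Of 14 genes of the EGF family, 8 reached that level, with 4 higher than in C4 and 3 lower. Among all genes at that level 12.8% were higher and 10.8% lower. C6 had the receptor Egfr, the ligand Hbegf (1270 and 747 CPM against 150 and 118 CPM), the ligand Tgfa (27.8 and 30.7 CPM against 10.9 and 13.99 CPM) and the feedback inhibitor Errfi1 (712 and 574 CPM against 222 and 195 CPM). C4 had the ligands Areg, Btc and Epgn at higher level. Of 14 genes of antigen presentation, 7 reached that level, none was higher in C6 than in C4 and 3 were lower, including B2m, the light chain of class I molecules, at 370 and 353 CPM against 1726 and 1563 CPM.

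Of 16 integrin and laminin genes, 12 reached the level for a call against C4, with 2 higher in C6 and none lower. Against C12, 2 of 14 were higher and 7 lower. Over all genes, 12.8% were higher and 10.8% lower than in C4, and 8.42% and 11% than in C12. Among the integrins, Itga2 was at 62.2 and 51.8 CPM in C6 and at least 2-fold lower in C4 (6.95 and 6.13 CPM) and in C12 (18.1 and 19.7 CPM). Itgb3, the integrin β3 chain often used to sort luminal progenitors, was at only 3.92 and 4.98 CPM and below the level for a call, whereas Itgb8 was at 75.7 and 72.6 CPM against 3.39 and 1.93 CPM in C4. Of 18 genes of glutathione and detoxification, 10 reached the level for a call, and 2 were higher than in C4, Mgst1 and Gpx4, and 4 were lower, among them Gclc, the rate-limiting enzyme of glutathione synthesis, at 29.6 and 32.3 CPM against 251 and 221 CPM. The shares over all genes were 12.8% higher and 10.8% lower. Mgst1 was at 483 and 570 CPM against 47.4 and 35.7 CPM.

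**Figure D2:**
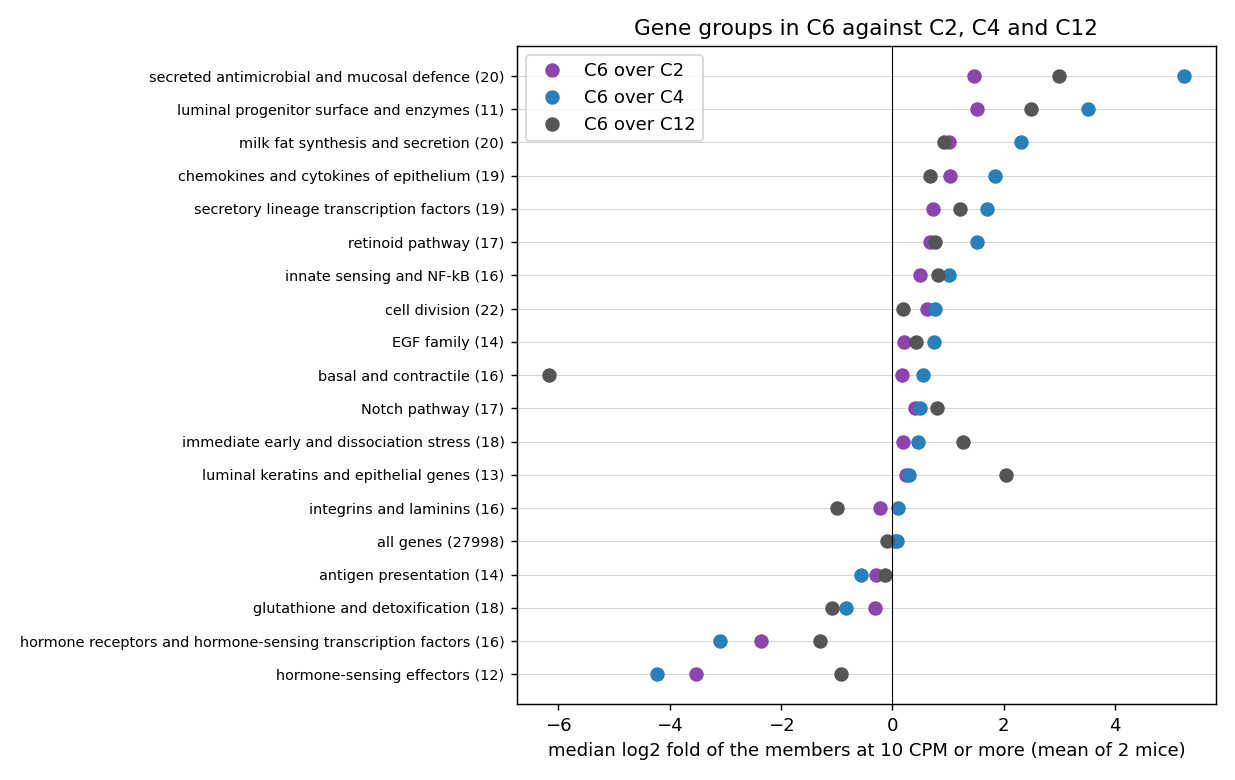
Median log2 fold of C6 over C2 (purple), C4 (blue) and C12 (grey) for 18 gene lists (milk proteins, with 1 gene at that level, left out) and for all genes, over the members at a mean of 10 CPM or more; the number of genes in the table stands after each name. Defence genes (5.23 over C4) and hormone-sensing effectors (-4.24 over C4) mark the ends against C4, basal and contractile genes (-6.17) the end against C12, and values for C2 mostly lie on the same side as for C4 with smaller size. Label markers belong to several lists, Lcn2 and Wfdc18 to the defence genes, Cd14 to innate sensing and Aldh1a3 to the retinoid pathway.

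C2, which the authors named hormone-sensing progenitors, lay between C6 and C4 in most of the genes called between those clusters. Between C6 and C2, 267 genes were higher in C6 and 362 lower (4.67% and 6.33% of 5720 genes). Of the 756 genes higher in C6 than in C4, C2 was intermediate in both mice in 752 (99.5%), and of the 638 lower genes in 604 (94.7%). These genes were picked for their gap between C6 and C4 in the same counts, which favours a value in between. The share over all genes was not computed. The median C2 level lay 34.9% and 33.5% of the way from C4 to C6 for the higher genes, and 36.6% and 33.1% for the lower ones. Aldh1a3 in C2 was at 737 and 552 CPM and Prlr at 1602 and 1578 CPM. C2 cells also had the most UMIs, a median of 16399 and 16877, beside 7768 and 6597 in C6 and 10163 and 10309 in C4; the part of cells captured together in this pattern was not tested.

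Across the 15 clusters, each taken at the stage that gave most of its cells, C6 had the highest Aldh1a3, at 1897 ± 195 CPM (SD, n = 2), ahead of the lactation cluster C11 at 776.5 ± 270.1 CPM. For Cxcl1 it was also first in value, at 2744 ± 132 CPM, but post-involution progenitors C7 at 2650 ± 514 CPM did not differ from it beyond their spread. Wfdc18, at 5047 ± 838 CPM in C6, was the fifth, after C11, C9, C8 and C10, all of gestation or lactation and led by C11 at 49060 ± 9030 CPM. Csn3 was the sixth, at 1078 ± 474 CPM, and not separable from C10 at 868 ± 445 CPM. Plet1 in C6 was the second of the 15 after C7, with values that overlapped those of post-involution C1 (5634 and 4674 CPM). Kit and Lcn2 were the fourth and Cd14 the fifth, and Kit overlapped gestation cluster C8 (66.1 and 86.7 CPM).

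Markers of cells outside the epithelium were low in C6. The 8 immune markers summed to 11.5 and 15.3 CPM, with 2 of them at 0 UMIs, the 8 endothelial markers to 4.83 and 8.71 CPM with 1 at 0, and the 5 red blood cell markers to 0.604 and 2.07 CPM with 3 at 0. Fibroblast and pericyte markers, 10 genes with 1 at 0, summed to 12.1 CPM in mouse 1 and 198 CPM in mouse 2. In mouse 2, 3 cells held 420 of the 442 UMIs of the 5 genes Col1a1, Col1a2, Col3a1, Dcn and Lum. No C6 cell of mouse 1 held more than 1 such UMI.

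Cell division genes were unequally spread as well. Of 22 genes only 4 reached the level for a call against C4, and 1 of these, Stmn1, a microtubule regulator, was higher in C6 (over all genes the share was 12.8%), at 22.03 and 44.8 CPM against 10.9 and 13.3 CPM. The 6 genes Mki67, Top2a, Birc5, Ccna2, Ccnb1 and Cdk1 had 18 UMIs in mouse 1, each in a different cell, and 121 in mouse 2, of which 5 cells held 103. These 5 cells carried between 38 and 61 UMIs of Wfdc18 each, 13 to 31 of Lcn2, 6 to 80 of Csn3 and 1 to 10 of Cd14. They held 0 to 14 UMIs of Aldh1a3 and 0 or 1 of Kit. The cell with the most division UMIs, 39, had 25376 UMIs in all and 0 of Aldh1a3. Without the cells of mouse 2 rich in division or fibroblast transcripts, Mki67 there went from 11.2 to 0 CPM and Dcn from 58.1 to 3.02 CPM, beside 0.604 and 3.92 CPM in mouse 1. The numbers of genes called higher and lower than in C4 were then 759 and 647; these cells were singled out after their values had been seen.

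Variation between C6 cells was measured by the Fano factor, the variance of the UMI count over its mean, in cells thinned to 2000 UMIs. Random capture alone gives a value near 1, and the median over 2606 genes with a mean of 0.1 UMI or more was 1.04 in mouse 1 and 1.05 in mouse 2. A factor of 1.5 or more in both mice was found in 121 genes (4.64%). The 15 largest in mouse 1 belonged to Cxcl1, Actb, Cxcl2, Csf3, Fos, Malat1, Wfdc18, Cst3, Krt18, Lcn2, Atf3, Ccl5, Tm4sf1, Gm42418 and Krt8. In mouse 2 these 15 had factors of at least 2.15, and 11 of them were again among the first 15. The lists behind the 121 genes included 10 of the 16 immediate early genes tested, 6 of the 11 defence genes, 6 of the 10 luminal epithelial genes and 4 of the 6 chemokines and cytokines. None of 13 secretory transcription factors was among them, which beside 4.64% over all tested genes says little about that list.

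Cxcl1 had the largest factor in both mice, 18.5 and 14.97, compared with 2.005 and 2.76 in C4 and 7.18 and 4.54 in C12, where its mean was lower. The thinned C6 cells held a median of 2 UMIs of it in each mouse, none in 33.3% and 32.9% of cells, and up to 90 and 71 UMIs in single cells. Csf3 had no UMI in 69.1% and 68.7% of C6 cells, but up to 26 and 31 in single cells, and a factor of 9.14 and 9.95. Cxcl2 was alike, with factors of 12.2 and 14.7. Without thinning, Cxcl1 had a UMI in 85.8% and 81.6% of C6 cells and Csf3 in 46.8% and 44.9%, so the share of cells at 0 moved with depth. The counts of these cytokine transcripts were spread more widely between C6 cells than those of most genes, as the plot of the Fano factor against the mean shows.

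Among the markers, the factor was 6.53 and 8.70 for Wfdc18, 5.34 and 5.29 for Lcn2, 4.33 and 4.62 for Aldh1a3, 3.85 and 4.23 for Csn3 and 1.87 and 2.30 for Cd14. Kit, at 1.12 and 1.16, lay near the value of random capture. Ccl5, a T cell attracting chemokine, was the extreme in another way, with no UMI in 96.5% of the cells of both mice and up to 10 and 12 UMIs in single cells.

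**Figure D3:**
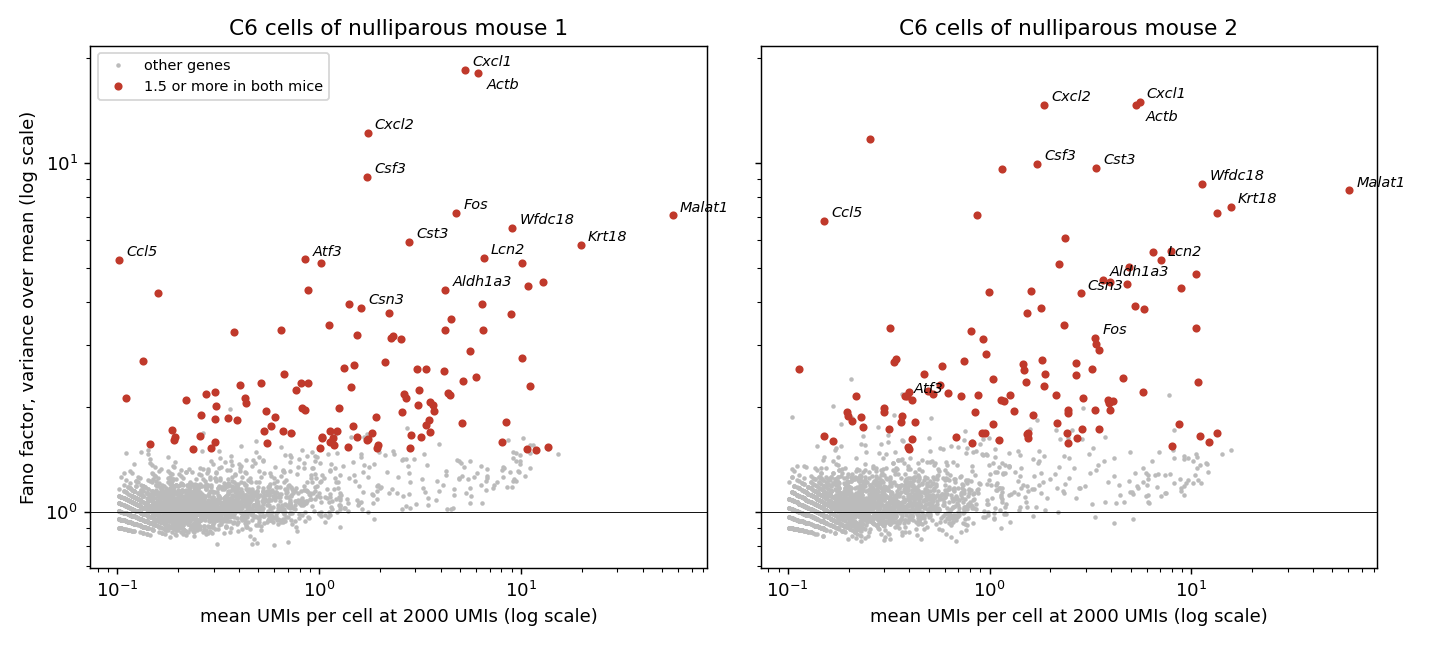
Fano factor (variance over mean of the UMI count) against mean UMIs per cell for 2606 genes in C6 cells thinned to 2000 UMIs, in nulliparous mouse 1 (left) and mouse 2 (right), both axes on a log scale; red points mark the 121 genes at 1.5 or more in both mice. Cxcl1, Cxcl2, Csf3 and Actb are among the 5 highest in both mice, while most genes lie near the line at 1.

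Pearson correlations of log2(UMIs + 1) between the thinned cells were computed for 3394315 pairs of genes and are given as descriptions over 372 and 316 cells, which share their library and, after thinning, their depth. In both mice 357 pairs reached 0.2 (0.0105%) and 14 pairs reached -0.2 (0.000412%). The genes with the most partners, named after their values were seen, were ribosomal proteins, led by Rps18 with 25. Of the 357 pairs 179 reached 0.2 again when the cells were thinned with another seed, and 332 when they were thinned to 4000 UMIs, so that pairs near the threshold depend on the draw. Of the 14 negative pairs only 1 reached -0.2 again with the other seed, and 7 at 4000 UMIs. With the other seed, the pairs named below in which both genes belong to Cxcl1, Cxcl2, Csf3, Tnfaip2 and Lcn2 were again past 0.2 in both mice, as were Krt8 with Krt18, Aldh1a3 with Cst3, Plet1, Plaur and Emp1, and Csn3 with Lcn2 and Cst3. Without the top 10% of cells by UMI count, 192 of the 357 pairs reached 0.2. In that setting Aldh1a3 fell short in mouse 2 with Plaur (0.19) and Emp1 (0.1996), and in both mice with Epcam (0.19 and 0.13).

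The cytokine genes that varied most varied together. Cxcl1 correlated with 9 of the 2605 other genes (0.345%), at 0.59 and 0.54 with Cxcl2, 0.53 and 0.48 with Tnfaip2, 0.56 and 0.45 with Csf3, 0.42 and 0.44 with Nfkbia and 0.29 and 0.26 with Lcn2. The others were Ier3, Zc3h12a, Pde4b and Csf1, of which Zc3h12a and Pde4b were chosen after their values had been seen; with the other seed Csf1 fell short in mouse 2 (0.19). Csf3 also correlated with Cxcl2 (0.47 and 0.38), Tnfaip2 (0.38 and 0.36) and Plet1 (0.34 and 0.30). The same genes varied together in C2, where Cxcl1 correlated at 0.45 and 0.58 with Cxcl2, 0.32 and 0.56 with Tnfaip2 and 0.36 and 0.43 with Csf3. In C4, where the means were low, Cxcl1 and Cxcl2 correlated at 0.09 and 0.12 and in C12 at 0.34 and 0.42, whereas Lcn2 and Cxcl1 were at -0.05 and -0.07 in C12. The UMI count of the cell before thinning correlated with Cxcl1 at 0.17 and 0.07, and the mitochondrial share at 0.05 and -0.06.

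The promoters of 4 genes of this group are shown because NF-κB is the textbook activator of Cxcl1, Cxcl2 and Nfkbia. Each sequence is the 250 bases before the transcription start in RefSeq (GRCm38.p6), read 5′ to 3′ on the strand of the gene: Cxcl1 at chr5:90890995-90891244 (plus), Cxcl2 at chr5:90903649-90903898 (plus), Nfkbia at chr12:55492648-55492897 (minus) and Tnfaip2 at chr12:111442411-111442660 (plus). Capitals mark matches to the NF-κB consensus on either strand, which overlap between the strands in Cxcl1 and Cxcl2.
Cxcl1: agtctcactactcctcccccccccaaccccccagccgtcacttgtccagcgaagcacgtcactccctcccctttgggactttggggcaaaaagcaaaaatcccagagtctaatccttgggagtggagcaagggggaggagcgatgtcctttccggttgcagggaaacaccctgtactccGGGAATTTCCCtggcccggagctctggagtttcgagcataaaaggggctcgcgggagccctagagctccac
Cxcl2: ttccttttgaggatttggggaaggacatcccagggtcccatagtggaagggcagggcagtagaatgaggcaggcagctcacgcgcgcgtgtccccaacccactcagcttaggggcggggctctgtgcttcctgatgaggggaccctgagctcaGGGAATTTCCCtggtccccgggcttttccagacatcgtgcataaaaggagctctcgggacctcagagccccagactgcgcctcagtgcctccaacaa
Nfkbia: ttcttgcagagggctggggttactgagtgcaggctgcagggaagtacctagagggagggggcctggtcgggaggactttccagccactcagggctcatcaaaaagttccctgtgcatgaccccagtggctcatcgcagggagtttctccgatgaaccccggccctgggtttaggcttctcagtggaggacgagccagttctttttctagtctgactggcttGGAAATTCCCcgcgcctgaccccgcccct
Tnfaip2: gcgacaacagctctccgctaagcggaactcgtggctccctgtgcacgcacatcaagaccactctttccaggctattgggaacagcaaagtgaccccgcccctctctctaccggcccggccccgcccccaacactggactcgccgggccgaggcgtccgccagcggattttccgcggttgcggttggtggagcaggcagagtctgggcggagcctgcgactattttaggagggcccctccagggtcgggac
The match begins 71 bases before the start in Cxcl1, 97 bases before it in Cxcl2 and 29 bases before it in Nfkbia, and Tnfaip2 has none in this window. Of the 9 genes correlated with Cxcl1, 8 had a promoter in the table and 5 of these held a match (Cxcl2, Nfkbia, Ier3, Csf1 and Pde4b), beside 3.90% of all 32851 promoter windows and 5.28% of the 2025 genes tested for correlation that had one. A match describes the letters only and was not tied to binding in these cells.

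Aldh1a3 had 11 partners past 0.2. The 5 named by the rule, the highest by the weaker mouse, were Cst3, a secreted inhibitor of cysteine proteases (0.24 and 0.39), Plet1 (0.24 and 0.31), the adhesion molecule Epcam (0.26 and 0.27), the urokinase receptor Plaur (0.25 and 0.25) and the membrane protein Emp1 (0.24 and 0.25). Epcam fell short of 0.2 in mouse 2 with another seed (0.17). The correlation of Aldh1a3 with Cxcl1 did not reach 0.2, and with the other 5 markers it lay between -0.13 and 0.06 in both mice. Csn3 correlated with Lcn2 (0.28 and 0.25), Cst3 (0.25 and 0.27) and Lrg1 (0.26 and 0.21), and negatively with Fcgbp (-0.20 and -0.27). With another seed Csn3 and Lrg1 were at 0.19 and 0.12, and Csn3 and Fcgbp at -0.14 and -0.27.

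Wfdc18 had no partner above 0.2. It was instead lower in cells with more Hbegf (-0.31 and -0.25) and Plet1 (-0.21 and -0.20), though with another seed these were -0.29 and -0.12 for Hbegf and -0.15 and -0.22 for Plet1. Kit and Cd14 had no partner past 0.2, and the 6 markers correlated with each other past 0.2 only in Lcn2 with Csn3. Lcn2 also correlated with Csf3, at 0.31 and 0.30. Krt8 and Krt18, which pair to form the luminal intermediate filament, correlated at 0.57 and 0.58 in C6 and at 0.58 and 0.47 in C4. Fos correlated with Jun (0.36 and 0.34) and Fosb (0.33 and 0.32), with negative values for Plet1 (-0.28 and -0.25). With another seed Fos and Plet1 were at -0.24 and -0.1985.

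**Figure D4:**
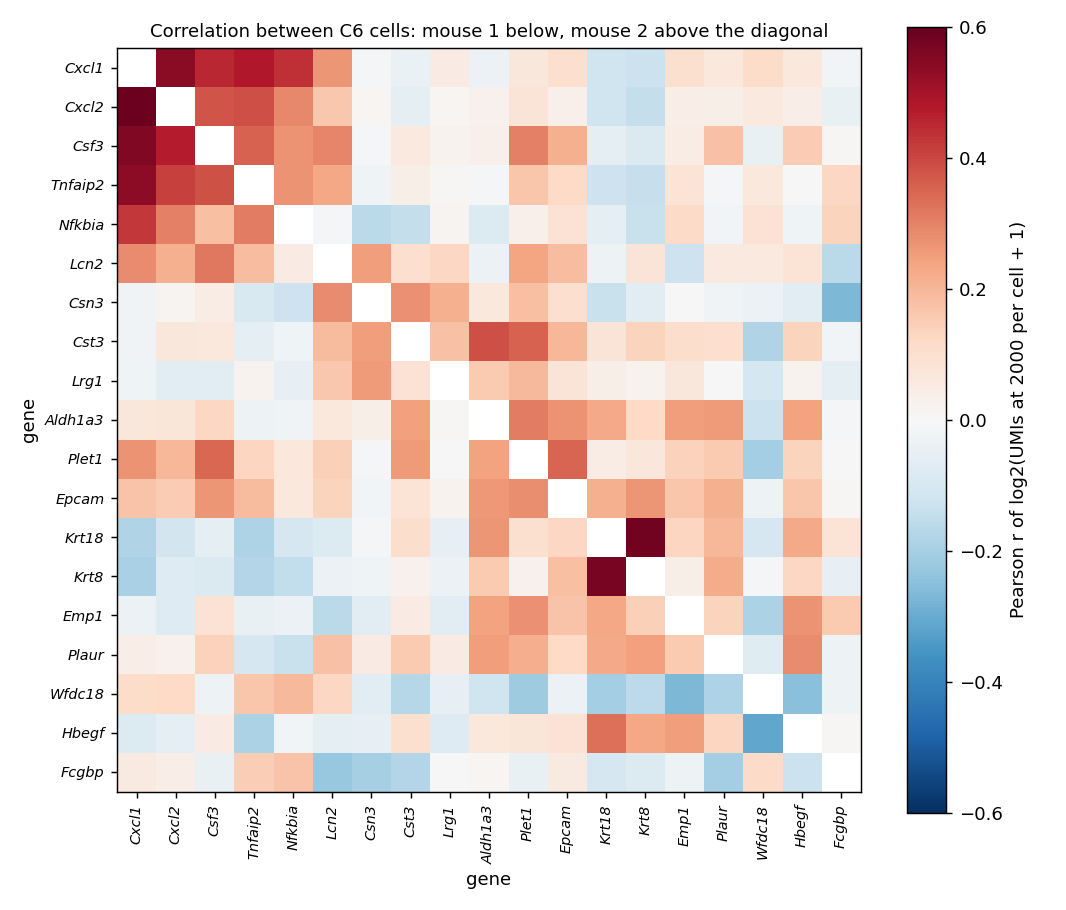
Pearson correlation of log2(UMIs + 1) between C6 cells at 2000 UMIs for 19 named genes, with mouse 1 below and mouse 2 above the diagonal and colour running from -0.6 (blue) to 0.6 (red). Cxcl1, Cxcl2, Csf3, Tnfaip2 and Nfkbia form one red block in both mice (Cxcl1 with Cxcl2 at 0.59 and 0.54), and Krt8 with Krt18 another. The row of Wfdc18 is blue at Plet1 and Hbegf, pairs that did not reach -0.2 in both mice with another seed.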

How the data were processed

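The deposited values were UMI counts, whole numbers for every gene in every barcode, in each of the 8 libraries, made by the authors with Cell Ranger, with STAR and mm10 named in the submitters' notes. The authors' deposited annotation gave each cell's library, cluster, quality flag, UMI and gene counts and the fraction of mitochondrial UMIs. Per the study's methods, cells more than 3 median absolute deviations below the median in genes or UMIs, or under fixed minima, had been removed before clustering. Cells with a high mitochondrial share and barcodes found in more than 1 library (83 and 69 of the NP barcodes) had been removed as well. A cluster taken for doublets was excluded by the authors only after clustering. Its cells still count among the 25009, and no doublet caller was run here.

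NP cells that passed the flag were kept. UMIs were summed per mouse and cluster, scaled to the total, and 0.5 count was added before each fold, which was taken within each mouse because C6 and the cluster beside it came from the same animal. No test between clusters was run. Variation and correlation used cells drawn without replacement to 2000 UMIs. The named genes were the 6 markers, the 10 largest differences in each direction against C4 and C12 (at 100 CPM or more), the 15 largest against all 3 clusters (at 50 CPM or more), members of the gene lists, the 15 largest Fano factors of mouse 1 and up to 5 correlated genes of each marker. Members and lists were chosen with earlier results of these data known. Cebpd, a list member, was not analysed here. Symbols shared by several gene identifiers (56) were kept apart. The counting and Fano steps were tested on simulated data. Gene coordinates came from GENCODE on GRCm38 and promoters from RefSeq. Python 3.11.15, numpy 2.4.6, scipy 1.17.1, pandas 2.3.3 and, for TMM scaling factors, edgeR 4.0.16 in R 4.3.3 were used. The alternatives were other scaling, filters, fold, depth, weights, cells and single mice.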

Additional observations from a re-analysis of the deposited data

How the results depend on the processing

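The counts of genes called were set by the thresholds. With no filter on the level, the counts of genes higher and lower in C6 were 904 and 1339 against C2, 14277 and 1784 against C4, 1409 and 2133 against C12, and 359 genes were higher than all 3; the 14277 arises by construction, since the 0.5 count added is worth more CPM in the smaller C6 sums. At 50 CPM or more they were 175 and 176, 460 and 334, and 320 and 382. With a 4-fold threshold they were 0 and 143, 304 and 250, and 186 and 289, and 0 genes were higher than all 3. Leaving out 1 mouse gave 370 to 414 genes higher than C2 and 185 to 216 higher than all 3; the larger value of each came without mouse 1. Taking the fold of the mean over both mice, with no replicate block, gave 934 and 784 genes against C4 and 638 and 794 against C12, and the pairing by mouse moved no count by over 1.5 times. TMM scaling shifted the log2 folds by up to 0.13 and gave 634 and 778 genes against C4 and 586 and 543 against C12. Variable genes numbered 251 at 4000 UMIs, 58 at a Fano factor of 2 or more, and 147 to 179 in single mice. Correlated pairs numbered 371 as reported, 1980 at 4000 UMIs and, in single mice, 1962 to 3310. The mean share of C6 cells with a UMI of a marker was 64.3% at 2000 UMIs, 73.9% at 4000 UMIs and 81.0% without thinning. Of the named genes' called folds only Tspan1 against C12 reversed, to 0.064 on the log2 scale when cells were thinned. Folds near 0 that were not called changed sign for Fos against C4 (0.06 as reported, -0.17 to 0.30 over the settings) and Actb against C12 (-0.08 as reported, -0.21 to 0.07). The cause of the other changes was not tested. Settings with single mice or another seed for correlations, and without cells rich in division or fibroblast transcripts, were chosen after seeing the data. Depth limits Kit and other genes near 1 UMI per cell.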

Other observations

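A few C6 cells came from other stages, 22 and 9 of them from the 2 post-involution (PI) libraries. These numbers are too small for a comparison and the values stand side by side with those of NP C6, with exact Poisson intervals that cover counting error only. Wfdc18 was at 12000 CPM (11460 to 12570) and 14050 CPM (13070 to 15080) in the PI cells and at 4454 and 5640 CPM in the NP cells. Kit was at 198 CPM (133 to 282) and 202 CPM (101.0 to 362) in the PI cells, beside 63.7 and 78.8 CPM. Aldh1a3 was at 969 CPM (819 to 1139) and 901 CPM (667 to 1191), beside 2035 and 1759 CPM, and Csn3 at 356 CPM (267 to 464) and 478 CPM (312 to 701), beside 743 and 1413 CPM. Cxcl1, at 3342 CPM (3057 to 3646) and 2317 CPM (1930 to 2759), was on both sides of the NP values of 2651 and 2837 CPM. Csn1s1, the alpha-S1 casein, was at 132 CPM (80.5 to 204) and 294 CPM (168 to 478) in the PI cells and at 11.8 and 7.46 CPM in the NP cells.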
